A study of Mus musculus with 18 samples.

Results

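Culture time under OLIG2 inhibition was described from 6 RNA-sequencing libraries of PTCP53 304 cells. In 3 of them the cells had been held under CT-179 for 144 h (culture day 6), and in the other 3 for 24 h (culture day 1). The 6 libraries were taken by their labels from the 18 libraries of the series. Of the 55183 genes in the deposited table, 11949 had at least 1 FPKM (fragments per kilobase of transcript, scaled to the depth of the library) in at least 3 of the 6 libraries, and these were tested. PTCP53 304 is a mouse Sonic hedgehog (SHH) medulloblastoma line of the genotype Ptch1+/-; Trp53-/-, which every group used here carried. CT-179 is a small-molecule inhibitor of the transcription factor OLIG2, and its dose is not given in the sources used here. Cells of the same line in vehicle for 144 h (3 libraries) and for 24 h (3 libraries) were used where the change under CT-179 was set against the change without it. All groups came from 1 line, and the labels do not say whether replicates were separate cultures, so the p-values measure the spread between these libraries, which may be technical.

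SHH medulloblastoma arises from progenitors of the granule neuron lineage in which the hedgehog receptor Ptch1 is lost or the pathway is switched on downstream of it, and the GLI transcription factors then drive proliferation. OLIG2 is a basic helix-loop-helix factor of glial progenitors, which in normal development acts in the specification of oligodendrocyte precursors and keeps progenitors cycling. In this tumour OLIG2 marks a glial-like stem and progenitor population that can be quiescent. When neural progenitors leave the cell cycle, the DREAM complex and the RB family shut down the genes of DNA replication and mitosis, and astrocytic differentiation brings in intermediate filament, transporter and lipid-carrier genes.

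The 6 libraries held 39900000 to 68400000 reads in genes, as inferred from the steps of the low FPKM values. A single library stood apart. Replicate 2 of CT-179 at 144 h correlated with the other 2 libraries of its group at 0.941 and 0.943, and every other pair within a group of cell libraries reached at least 0.996. Its difference from the mean of the 24 h libraries followed transcript length: the median was 0.70 on the log2 scale in the shortest of 10 equal bins of protein-coding genes and -0.69 in the longest (Spearman's rho -0.40 across 10752 genes). In the other 2 libraries at 144 h the same medians were -0.13 and 0.10 for replicate 1 and -0.11 and 0.08 for replicate 3. A short gene tends to read high in it and a long gene low, so the counts over all genes are given with and without this library, and those of a gene list wherever leaving it out moved a count by more than 1.5 times. Of the 154 tested genes named for time here and in the closing observations, 145 passed with all 6 libraries, and all 145 passed in the same direction without it. Another 7 passed only without it, and over the 154 leaving it out moved the log2 fold change by a median of 0.16 in size and by 0.69 at most, for Atm. Of the 145, 15 no longer passed in at least 1 fit that left out one of the other 5 libraries: Axin2, Bub3, Cspg4, Ddb2, Hes1, Irs2, Jag1, Pdgfra, Per2, Phgdh, Slc12a2, Tfeb, Trp53, Xpc and Zic2. The cause of the length pattern was not tested.

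**Figure D1:**
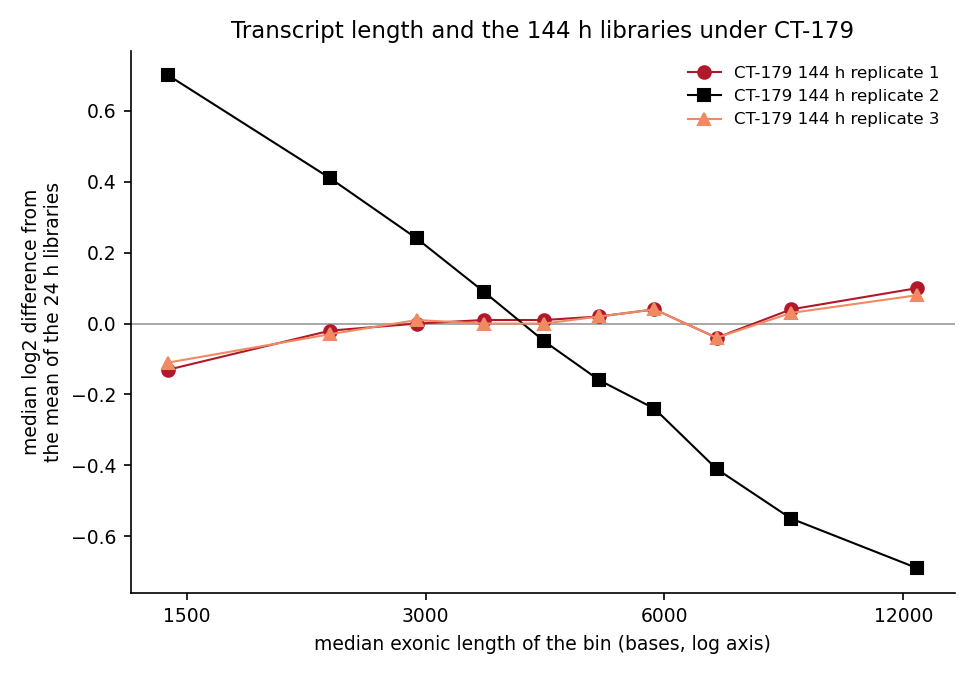
Median log2 difference of each CT-179 144 h library from the mean of the 24 h libraries (vertical axis), in 10 bins of protein-coding genes by exonic length in bases (horizontal axis, log scale). Replicate 2 lies at 0.70 in the shortest bin and at -0.69 in the longest, and replicates 1 and 3 stay between -0.13 and 0.10.

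The labelled cell type was checked against markers. Of 20 granule lineage transcription factors 13 stayed under 1 FPKM in all 6 libraries. Among 12 markers of SHH medulloblastoma lines 7 were high enough to test. Zic2, a transcription factor of the cerebellar granule lineage, averaged 8.17 ± 0.115 FPKM at 144 h and 9.95 ± 0.544 FPKM at 24 h under CT-179 (SD, n = 3 each). The hedgehog genes Gli1, Gli2, Ptch1 and Boc were all above 1 FPKM at both times. Atoh1 and Barhl1, which define granule neuron progenitors, stayed under 1 FPKM in every library, with Atoh1 at 0.0047 FPKM at 144 h and 0.0135 FPKM at 24 h. Of the 14 microglia and macrophage markers none reached 1 FPKM in any of the 6 libraries, and 7 of them were listed at 0 throughout, Cx3cr1, Ptprc and Itgam included. The 10 blood markers were also all under 1 FPKM, and the summed level of the 13 endothelial and mural markers was 6.40 to 7.32 FPKM at 144 h and 4.40 to 4.69 FPKM at 24 h, with Cldn5 and Cdh5 listed at 0. The 11 fibroblast and meningeal markers were expressed, with a summed level of 78.8 to 83.1 FPKM at 144 h and 49.6 to 51.7 FPKM at 24 h. Of these markers 8 were tested, 4 rose and 3 fell, and their part in the matrix results was not tested. Trp53 itself read 8.51 ± 2.61 FPKM at 144 h and 13.9 ± 0.555 FPKM at 24 h (SD, n = 3 each), and which part of the gene is deleted is not given in the sources used here.

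Time under CT-179 changed many genes, with similar numbers in each direction. On log2(FPKM + 1), 3190 genes were higher at 144 h than at 24 h (26.7% of those tested) and 3105 were lower (26%), together 52.7%, by limma with Benjamini-Hochberg adjustment at 0.05. With the replicate block 5701 genes passed, and 4621 to 5629 when one of the libraries other than replicate 2 at 144 h was left out. Without replicate 2 at 144 h, 5210 were higher (43.6%) and 5205 lower (43.6%), together 87.2%. The counts of each gene list below stand beside the shares of the same fit. With so many calls, a gene past the threshold is not unusual, so a further count was kept for genes that also changed by at least 1 on the log2 scale in both fits: 1255 were higher (10.5%) and 1057 lower (8.85%). The 144 h and 24 h libraries did not overlap for 8138 genes (68.1%). Differences on this scale understate the change of genes near or under 1 FPKM. The median change over all genes was -0.04, and -0.002 without replicate 2. In bulk RNA, fewer cells of a type and less RNA per cell cannot be told apart.

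**Figure D2:**
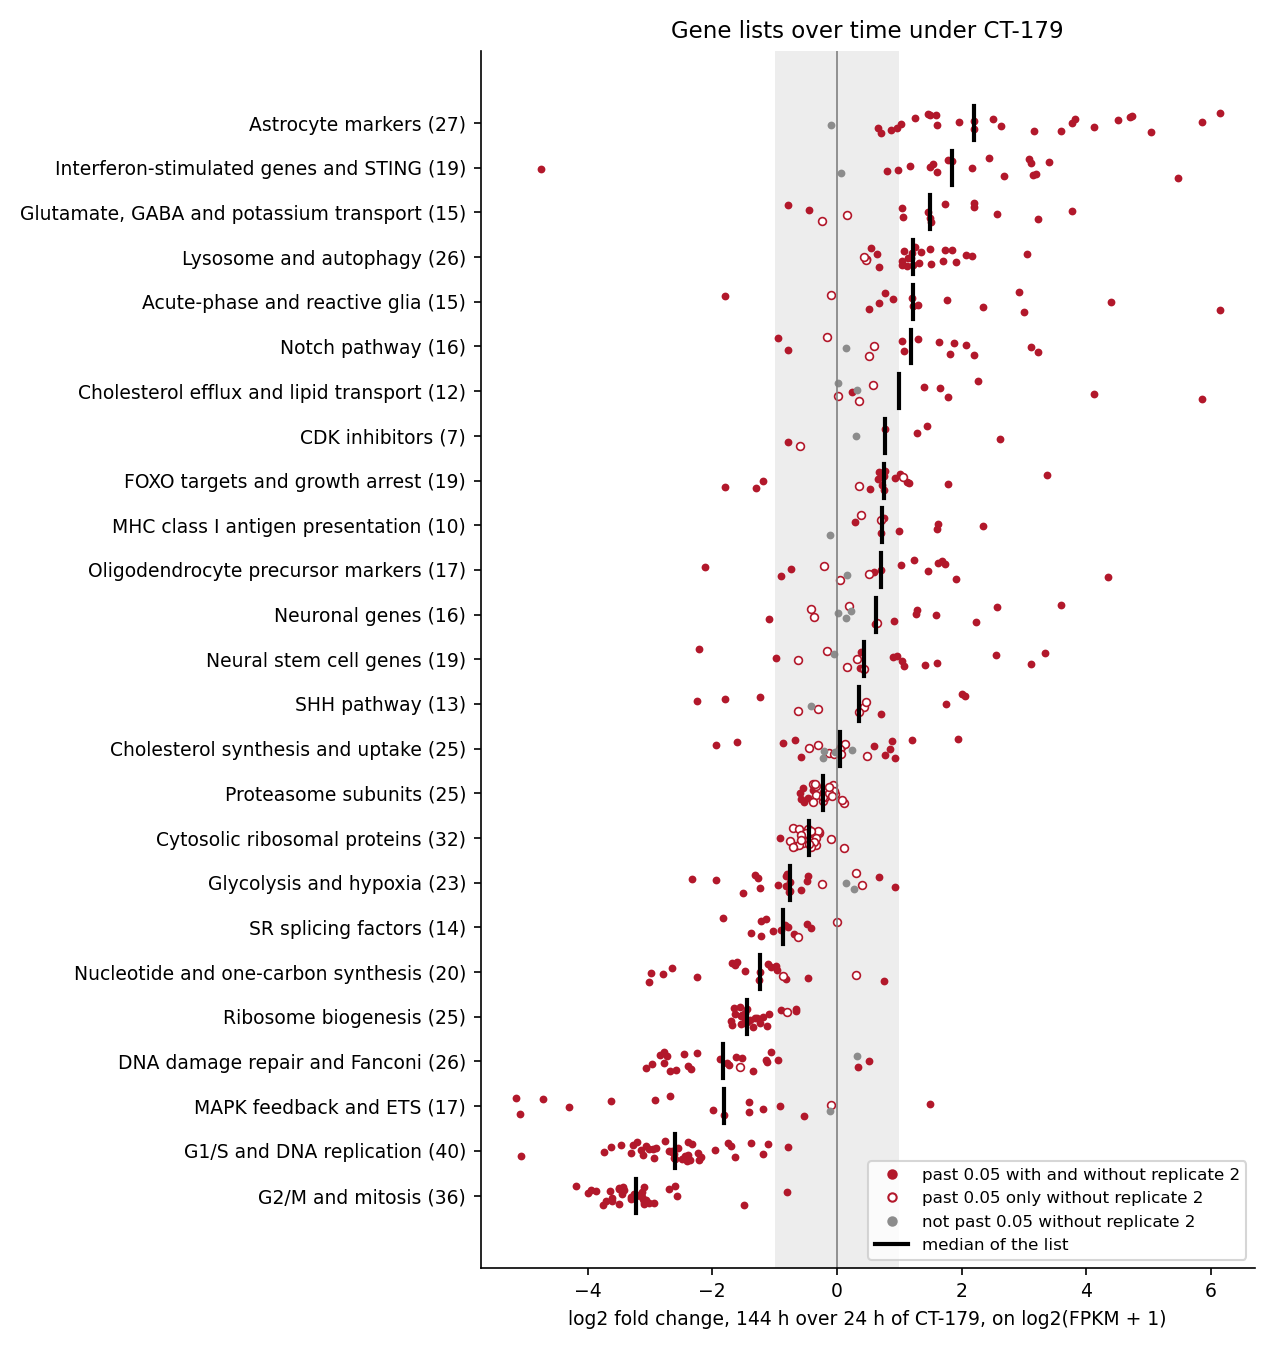
Log2 fold change of 144 h over 24 h of CT-179 on log2(FPKM + 1) (horizontal axis) for the tested members of 25 gene lists (vertical axis, number tested in brackets), with a point per gene and a black bar at the median. The grey band covers changes under 1 in size, and the lists run from astrocyte markers (median 2.20) at the top to genes of mitosis (median -3.23) at the bottom.

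Olig2, the gene of the inhibited protein (chr16:91225457-91228677, mm10), had 216, 180.3 and 213 FPKM at 144 h, against 389, 411 and 402 FPKM at 24 h. The 3 libraries at 144 h all lay below the 3 at 24 h, and the mean fell to 203 ± 19.7 FPKM at 144 h, against 401 ± 10.9 FPKM at 24 h (SD, n = 3 each). Its log2 fold change was -0.98 (SE 0.12, limma adjusted p = 0.00086), and -0.90 without replicate 2. An exact two-sided permutation test on the FPKM values gave p = 0.1, the smallest that 3 against 3 libraries allow. The neighbouring paralogue Olig1 read 465, 625 and 444 FPKM at 144 h and 671, 739.8 and 670 FPKM at 24 h. These values did not overlap either, but the change of -0.45 did not pass (adjusted p = 0.073) and passed without replicate 2 at -0.61. Sox10, the oligodendrocyte lineage factor, stayed at 0.264 to 0.409 FPKM at 144 h and 0.0097 to 0.0231 FPKM at 24 h, below the level needed for the test. In vehicle Olig2 changed by -0.92 over the same interval, to 201 FPKM at 144 h, against 382 FPKM at 24 h.

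In the list of OLIG and oligodendrocyte transcription factors 12 genes were tested. Of these, 7 rose, 1 fell and 4 did not pass, against 26.7% of all genes higher and 26% lower. Without replicate 2 there were 8 rises and 3 falls, against 43.6% of all genes each way. The riser with the smallest p was Id4, a dominant-negative partner of basic helix-loop-helix factors, at 6.83, 9.08 and 5.81 FPKM at 144 h and 0.161, 0.184 and 0.231 FPKM at 24 h. The 2 times were far apart for Id4, with a log2 fold change of 2.77. Sox9, a glial specification factor, rose by 1.61 to 135 ± 21.6 FPKM at 144 h, against 43.2 ± 0.804 FPKM at 24 h, and Sox6 rose by 2.25. Nkx2-2 read 13.3 FPKM at 144 h and 16.5 FPKM at 24 h and did not pass with all 6 libraries.

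Genes of DNA replication and mitosis fell together and by large amounts. All 40 tested genes of the G1/S and DNA replication list fell, with a median of -2.60, and so did all 36 of the G2/M and mitosis list, with a median of -3.23. Both counts were the same without replicate 2, with medians of -2.66 and -3.27, while 26% of all genes tested were lower. Falls of at least 1 on the log2 scale in both fits were found for 39 of the 40 and 35 of the 36, where 8.85% of all genes had one. For no member of either list did the 144 h libraries overlap the 24 h libraries, as was the case for 68.1% of all genes tested.

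Mki67, whose product coats mitotic chromosomes and marks cycling cells, read 3.12, 1.42 and 3.19 FPKM at 144 h, against 50.9, 47.3 and 50.7 FPKM at 24 h. The highest library at 144 h was far below the lowest at 24 h, and the log2 fold change was -3.87 (SE 0.23, limma adjusted p = 5.5e-05). Ccna2, the cyclin of S phase and G2, had 5.03, 5.53 and 5.28 FPKM at 144 h, against 114, 113 and 113 FPKM at 24 h (log2 fold change -4.19). For Plk1, a mitotic kinase, the levels were 4.75, 5.38 and 4.91 FPKM at 144 h and 93.1, 96.1 and 95.2 FPKM at 24 h (log2 fold change -4.00). Tk1, the thymidine kinase of S phase, fell by 5.07, the largest fall in the replication list, to 1.72, 3.32 and 1.93 FPKM at 144 h, against 108, 108 and 109 FPKM at 24 h. The smallest falls were -0.79 for Gins4, a subunit of the replicative helicase complex, and -0.80 for Bub3 of the spindle checkpoint. Among the 12 genes with the largest falls of all, 5 were of S phase or mitosis (Tk1, Ccna2, Plk1, Pclaf and Ccnb1).

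Promoters of a few of these genes are printed because repression by DREAM and E2F complexes acts through short elements next to the transcription start. Only genes that hold the marked elements in a stretch free of exons were eligible, taken in order of the size of change. Each printed gene therefore holds its matches by the choice made. The sequences are the 150 bases before the RefSeq start of the gene (GRCm38.p6, strand of the gene, 5′ to 3′), taken from the RefSeq promoter table. Capitals mark every match, on either strand, to TTTGAA (the core of the cell cycle genes homology region, CHR) or to CCAAT (bound by NF-Y) in the first 3, and to TTTGGCG or TTTCGCG (an E2F element) in the last 2. They lie at chr7:135716380-135716529 on the minus strand for Mki67, chr11:99024190-99024339 on the minus strand for Top2a and chr19:37376232-37376381 on the plus strand for Kif11. The last 2 lie at chr8:75109359-75109508 on the plus strand for Mcm5 and chrX:93632156-93632305 on the minus strand for Pola1.
Mki67: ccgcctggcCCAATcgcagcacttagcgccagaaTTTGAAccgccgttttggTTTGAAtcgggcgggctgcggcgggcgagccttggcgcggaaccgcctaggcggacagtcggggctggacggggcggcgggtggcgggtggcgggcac
Top2a: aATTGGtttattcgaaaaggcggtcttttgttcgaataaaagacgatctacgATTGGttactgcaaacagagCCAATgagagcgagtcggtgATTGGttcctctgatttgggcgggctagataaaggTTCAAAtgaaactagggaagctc
Kif11: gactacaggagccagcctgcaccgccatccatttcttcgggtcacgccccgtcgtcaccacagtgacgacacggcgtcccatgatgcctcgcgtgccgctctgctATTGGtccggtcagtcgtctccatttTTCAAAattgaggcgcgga
Mcm5: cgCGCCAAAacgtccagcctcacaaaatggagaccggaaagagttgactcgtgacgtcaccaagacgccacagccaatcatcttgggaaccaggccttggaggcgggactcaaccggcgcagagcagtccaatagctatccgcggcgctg
Pola1: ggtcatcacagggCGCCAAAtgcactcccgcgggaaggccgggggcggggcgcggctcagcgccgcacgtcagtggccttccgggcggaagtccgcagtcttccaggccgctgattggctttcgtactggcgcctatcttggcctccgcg

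In Mki67 the CHR core occurred 2 times, beginning 116 and 98 bases before the start, downstream of a CCAAT box that begins at 141 bases. Top2a, the type II topoisomerase of mitosis, held 4 CCAAT boxes and a CHR core that begins 23 bases before the start, and Kif11, a spindle motor, held 1 of each. Over the 250 bases before the start, 36.7% of the 30 mitosis genes found in the table held TTTGAA, 83.3% held CCAAT and 33.3% held both. Over the promoters of all 27025 genes in the table the same shares were 16.3%, 34.5% and 5.73%. The E2F element was held by 15.6% of the 32 replication genes found, and by 1.96% of all promoters. A match describes letters only, and binding was not measured. Top2a had 8.03, 4.68 and 8.14 FPKM at 144 h and 96.1, 95.2 and 96.5 FPKM at 24 h, so its fall was -3.64. Mcm5, a subunit of the replicative helicase, had 7.77, 8.21 and 7.64 FPKM at 144 h and 118, 122 and 114 FPKM at 24 h, a change of -3.74.

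The regulators of the cycle moved in a less uniform way. For the lists that follow, 26.7% of all genes tested were higher and 26% lower, and 43.6% each way without replicate 2. Among 7 CDK inhibitors 4 rose, 1 fell and 2 did not pass (4 and 2 called without replicate 2). Cdkn2b, the p15 inhibitor of CDK4 and CDK6, had 25, 32.6 and 26.1 FPKM at 144 h, against 3.68, 4.12 and 3.30 FPKM at 24 h, and its log2 fold change was 2.61 (SE 0.13, limma adjusted p = 3.3e-05). Cdkn1a, the p21 inhibitor and a p53 target, had 4.20, 6.17 and 4.69 FPKM at 144 h and 1.09, 1.18 and 1.26 FPKM at 24 h, an increase of 1.45 in a line labelled Trp53-/-. Of 12 tested p53 target genes 4 rose and 3 fell (median 0.10), shares near those of all genes. Without replicate 2 the counts were 5 and 5. Cdkn1c and Cdkn1b, the p57 and p27 inhibitors, rose by 1.28 and 0.78, and Cdkn2c, the p18 inhibitor, fell by 0.78. In the axis of cyclin D, CDK4/6 and RB, 3 of 7 genes fell and 1 rose (4 and 2 without replicate 2). Ccnd1 fell by 2.92 to 20.5 ± 2.81 FPKM at 144 h, against 160.3 ± 1.59 FPKM at 24 h, Ccnd2 fell by 3.22, and Cdk6 rose by 1.19. Of the 12 genes of the MuvB and DREAM list 6 fell and 2 rose (8 and 4 without replicate 2, where 87.2% of all genes passed). Mybl2, which turns MuvB into an activator, and Rbl1 (p107) were among those that fell, at -2.99 and -2.12, and E2f5 rose by 0.85. Rbl2, the p130 protein of resting cells, read 18.7 FPKM at 144 h and 11.7 FPKM at 24 h, which passed without replicate 2 (0.87).

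DNA repair genes followed the cycle genes in direction. In the list of DNA damage repair and Fanconi genes 22 of 26 fell and 2 rose, with a median of -1.82, where 26% of all genes tested were lower and 26.7% higher. Brca1 fell by 2.78 to 0.857 ± 0.351 FPKM at 144 h, against 11.6 ± 0.307 FPKM at 24 h, and the checkpoint kinase Chek1 fell by 2.72. The members that rose, Xpc by 0.51 and Ddb2 by 0.34, act in nucleotide excision repair, and Ddb2 did not pass with the replicate block (limma adjusted p = 0.11). Atm, a very long transcript, read 4.38, 0.277 and 4.29 FPKM at 144 h and 8.85, 8.38 and 9.01 FPKM at 24 h, and did not pass (adjusted p = 0.063) with the outlying replicate 2 included.

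Growth and biosynthesis genes were lower at 144 h. All but 1 of 25 ribosome biogenesis genes fell (24, median -1.44), and Npm1, the nucleolar chaperone, had 159.7, 277 and 165 FPKM at 144 h, against 548, 538 and 535 FPKM at 24 h. Even the high replicate 2 lay below all 24 h libraries for Npm1, and its log2 fold change was -1.47. The remaining member, Nhp2, read 157 FPKM in replicate 2 and 63.7 and 67.3 FPKM in the other libraries at 144 h, against 151 to 155 FPKM at 24 h. Myc, which drives this programme, fell by 1.56 to 30.6 ± 3.86 FPKM at 144 h, against 91.4 ± 2.16 FPKM at 24 h. Mycn and Mycl rose by 1.75 and 1.96, to 3.41 and 18.1 FPKM at 144 h, against 0.309 and 3.91 FPKM at 24 h, and so did the MAX partners that oppose MYC, Mxd1 by 1.52 and Mxd4 by 1.25. The 32 cytosolic ribosomal proteins depended on the outlying library: 1 fell with all 6 libraries (Rpl4, -0.91) and 32 fell without replicate 2, with medians of -0.44 and -0.82. Of all genes 26% were lower with all 6 libraries and 43.6% without replicate 2. In replicate 2 the short ribosomal protein genes summed to 26078 FPKM, against 12357 and 12751 FPKM in the other libraries at 144 h.

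Metabolic lists were divided. In nucleotide and one-carbon synthesis 17 of 20 genes fell and 1 rose (median -1.24; 18 and 2 without replicate 2). Shmt1, the cytosolic serine hydroxymethyltransferase, had 2.64, 3.15 and 3.02 FPKM at 144 h, against 30.4, 30.8 and 29.8 FPKM at 24 h, a change of -2.99, and Mthfd2 fell by 2.79. The riser was Phgdh, the first enzyme of serine synthesis, at 0.76. Of 23 glycolysis and hypoxia genes 16 fell and 2 rose (median -0.76; 17 and 4 without replicate 2), with Eno1 at -1.94, Hk2 at -2.32 and Ldha at -1.51. Among 25 genes of cholesterol synthesis and uptake 7 rose and 5 fell, with a median of 0.05, shares near those of all genes (26.7% higher and 26% lower). Without replicate 2 the counts were 12 and 9, where 43.6% of all genes were higher and 43.6% lower. Hmgcs1, which makes the precursor of mevalonate, rose by 1.94 to 409 ± 27.3 FPKM at 144 h, against 106 ± 1.73 FPKM at 24 h. In fatty acid synthesis and oxidation 10 of 21 genes rose and 2 fell (14 and 6 without replicate 2), the risers including the neuronal carnitine palmitoyltransferase Cpt1c (2.18). SR splicing factors were lower, 12 of 14 (median -0.87), with Srsf2 at -1.38.

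Genes that report FGF and MAPK signalling were among the largest falls of all. In the MAPK feedback and ETS list 14 of 17 fell and 1 rose (median -1.81, and -1.66 without replicate 2), where 26% of all genes tested were lower. Dusp6, the phosphatase that switches off ERK and is itself induced by it, had 1.68, 1.77 and 1.72 FPKM at 144 h, against 91.6, 92.7 and 89.8 FPKM at 24 h. The 3 libraries at 144 h differed from each other by less than 0.1 FPKM, and the log2 fold change was -5.08 (SE 0.07, limma adjusted p = 4.3e-06). Spry4, a feedback inhibitor of receptor tyrosine kinases, fell by 5.15, the largest log2 fall of all genes tested, to 0.673, 0.314 and 0.539 FPKM at 144 h, against 51.3, 53.2 and 52.3 FPKM at 24 h. Without replicate 2 the order was Tk1 (-5.27), Dusp6 (-5.09) and Spry4 (-5.05). Of the ETS factors downstream of FGF receptors, Etv4 fell by 4.71, and Etv5 fell by 4.30 to 11.8, 7.32 and 13.2 FPKM at 144 h, against 222, 223 and 231 FPKM at 24 h. The list was not uniform, because Egr1, an immediate early gene of the same cascade, rose by 1.50. Fos, another immediate early gene, had 28, 25.6 and 29.6 FPKM at 144 h, against 1.82, 1.65 and 2.06 FPKM at 24 h, a change of 3.34, and 5 of 10 immediate early genes rose while 2 fell. Of 18 receptor tyrosine kinases and ligands 10 rose and 4 fell (11 and 6 without replicate 2). The shares of all genes were 26.7% higher and 26% lower, and 43.6% each way without replicate 2. Fgfr3, a receptor of astrocytes and their progenitors, rose by 3.59, Ntrk2 by 4.58, and Pdgfa, the ligand of the precursor receptor Pdgfra, fell by 1.38.

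The remaining genes among the 12 largest falls lie outside these programmes. Car3, a carbonic anhydrase, had 0.339, 0.482 and 0.438 FPKM at 144 h, against 46, 43.6 and 43.8 FPKM at 24 h (log2 fold change -5.00). Papln, an extracellular matrix glycoprotein, had 2.72, 0.818 and 3.05 FPKM at 144 h, against 60.6, 61.6 and 61.9 FPKM at 24 h (log2 fold change -4.37). Neither gene overlapped between the 2 times, and the other gene, Sting1, is described with the interferon genes.

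Hedgehog genes changed in both directions. In the 13 tested genes of the SHH pathway list 4 rose, 3 fell and 6 did not pass, with a median of 0.36, shares near those of all genes (26.7% higher and 26% lower). Without replicate 2, 7 were higher and 5 lower, against 43.6% of all genes each way. Gli1, the transcription factor that is itself the standard readout of pathway output, had 12.3, 9.38 and 11.5 FPKM at 144 h, against 1.88, 1.98 and 1.84 FPKM at 24 h. All libraries at 144 h lay above all at 24 h, and Gli1 rose by 2.05 (SE 0.12, limma adjusted p = 4.8e-05). Ptch1, the receptor and a GLI target, had 22, 7.85 and 20.6 FPKM at 144 h, against 2.92, 2.98 and 3.41 FPKM at 24 h, a rise of 2.00. The long Ptch1 transcript was lowest in replicate 2, and its change was 2.45 without that library. The ligand co-receptors Gas1 and Cdon fell by 1.79 and 2.25, and Gli3, the main repressor of the family, fell by 1.24. Smo, the signal transducer, read 65.3, 28.7 and 64.4 FPKM at 144 h and 66.2, 67.7 and 65.8 FPKM at 24 h and did not pass.

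**Figure D3:**
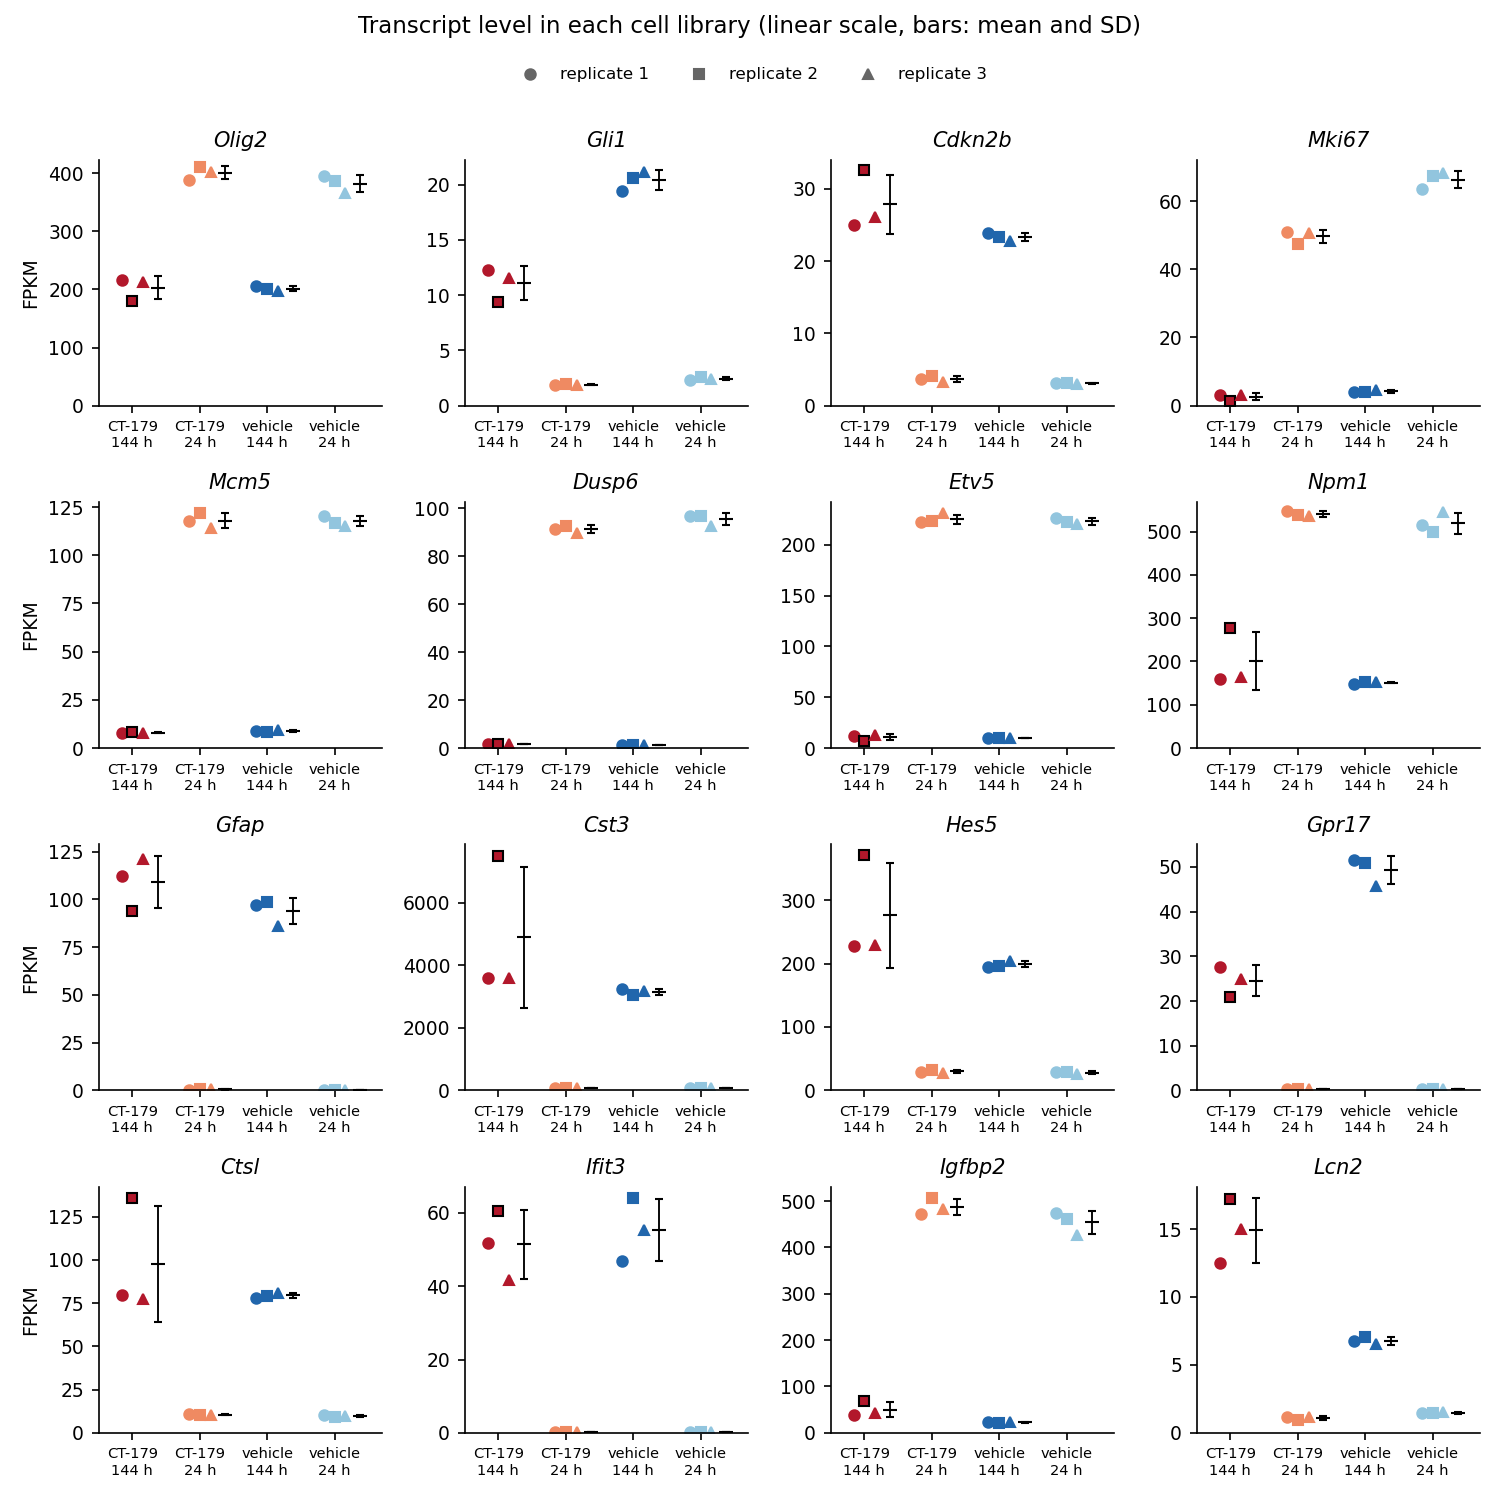
FPKM in each cell library (vertical axis, linear scale) of 16 genes. Each panel shows, from left to right, CT-179 at 144 h, CT-179 at 24 h, vehicle at 144 h and vehicle at 24 h. There is a point per library, a black-edged square for CT-179 144 h replicate 2, and a bar at the mean ± SD (n = 3). Under CT-179 Gfap reads 93.8 to 121 FPKM at 144 h and 0.458 to 0.626 FPKM at 24 h, and Dusp6 reads 1.68 to 1.77 FPKM at 144 h and 89.8 to 92.7 FPKM at 24 h.

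Astrocyte genes had the largest median increase among the lists, except with TPM scaling and replicate 2 left out, where the interferon list had 2.82 and astrocyte markers 2.53. Of the 27 tested markers 26 rose (26.7% of all genes tested were higher), 22 of them by at least 1 in both fits (10.5% of all genes), and the list median was 2.20 with all libraries and 2.31 without replicate 2. Gfap, the intermediate filament of astrocytes, had 112, 93.8 and 121 FPKM at 144 h, against 0.458, 0.572 and 0.626 FPKM at 24 h. No library came between the 2 groups, and Gfap rose by 6.14 (SE 0.12, limma adjusted p = 5.5e-06). Cst3, a secreted cysteine protease inhibitor abundant in astrocytes, had 3605, 7504 and 3582 FPKM at 144 h, against 76.2, 79.2 and 77.6 FPKM at 24 h. The value of replicate 2 was the highest for this short transcript, and the rise of 5.87 was 5.51 without it. Clu, the lipid carrier clusterin, rose by 5.86 to 173 ± 36.3 FPKM at 144 h, against 1.96 ± 0.107 FPKM at 24 h (SD, n = 3 each).

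Apoe, the main lipid carrier of glia, rose by 4.12, to 1781 ± 663 FPKM at 144 h, against 97.5 ± 2.43 FPKM at 24 h, and the water channel Aqp4 rose by 3.82. Members above 10 FPKM at 24 h included Cst3 and Apoe as well as F3, Bcan and Aldoc. Of the members that rose, the smallest changes were those of F3 (0.66), Bcan (0.70) and Aldoc (0.87). Gja1, the astrocytic gap junction protein, was the exception, with 8, 6.11 and 7.39 FPKM at 144 h and 7.69, 7.81 and 7.55 FPKM at 24 h, and the groups overlapped. The largest rise of all tested genes was that of Itih3, which encodes a heavy chain of the inter-alpha-trypsin inhibitor, with 542, 419 and 542 FPKM at 144 h, against 2.65, 2.61 and 3.02 FPKM at 24 h (log2 fold change 7.05). Agt, angiotensinogen, which brain astrocytes make, followed with 340.3, 527 and 338 FPKM at 144 h, against 4.04, 4.15 and 3.88 FPKM at 24 h (6.29), although without replicate 2 Gfap rose more (6.24) than Agt (6.08). Others among the 12 largest rises were Entpd2 (5.50), an ectonucleotidase, the endothelin receptor Ednrb (5.17), Mmd2 (5.04), the calcium protease Capn1 (5.35), the actin-associated Pdlim4 (4.88) and the GABA-B receptor subunit Gabbr2 (4.83).

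Transport functions of astrocytes moved the same way. Of 15 tested genes for glutamate, GABA and potassium handling 11 rose, 2 fell and 2 did not pass (median 1.50), and for none of the 15 did the 2 times overlap (68.1% of all genes). Without replicate 2, 12 were higher and 3 lower. The shares of all genes were 26.7% higher and 26% lower with all 6 libraries, and 43.6% each way without replicate 2. Slc6a11, the GABA transporter GAT-3, had 193, 113 and 185 FPKM at 144 h, against 10.5, 11.1 and 10.7 FPKM at 24 h (3.77), and Kcnj10, the glial potassium channel Kir4.1, had 129, 52.4 and 130.4 FPKM at 144 h, against 9.90, 9.36 and 8.90 FPKM at 24 h (3.22). Both were lowest at 144 h in replicate 2. The glutamate transporters Slc1a2 and Slc1a3 rose by 2.20 and 1.47, and the chloride importer Slc12a2 fell by 0.78.

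Oligodendrocyte precursor genes rose in part. In this list 10 of 17 rose, 3 fell and 4 did not pass, with a median of 0.70, against 26.7% of all genes higher and 26% lower. Gpr17, a receptor of committed precursors, had 27.7, 20.8 and 24.9 FPKM at 144 h, against 0.209, 0.254 and 0.27 FPKM at 24 h (log2 fold change 4.35, SE 0.12, limma adjusted p = 6.1e-06). Pdgfra, the growth factor receptor of precursors, rose by 1.24 to 17.3 ± 6.62 FPKM at 144 h, against 6.35 ± 0.108 FPKM at 24 h. Cspg4, the NG2 proteoglycan, fell by 0.73 to 13.4 ± 4.34 FPKM at 144 h, against 22.2 ± 1.80 FPKM at 24 h. The call of Cspg4 was lost with the replicate block (limma adjusted p = 0.074). Of 20 genes of myelin and mature oligodendrocytes 5 were high enough to test, and 3 rose and 2 fell. Mbp stayed at 0.325 to 0.411 FPKM at 144 h and 0.0332 to 0.076 FPKM at 24 h and was not tested.

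Neuronal genes were low at both times, and 10 of the 26 listed did not reach 1 FPKM in any library. Of the 16 tested, 8 rose and 1 fell (median 0.63), against 26.7% of all genes higher and 26% lower. Without replicate 2 there were 10 rises and 3 falls, against 43.6% of all genes each way. Tubb3, the neuronal tubulin, had 13.6, 22.8 and 13.5 FPKM at 144 h, against 0.331, 0.448 and 0.462 FPKM at 24 h, a rise of 3.60, and Dcx, of migrating neurons, rose by 1.27 to 2.01 FPKM at 144 h, against 0.234 FPKM at 24 h. Among the 19 tested neural stem cell genes 11 rose and 2 fell (median 0.43; 15 and 3 without replicate 2). Nes, the progenitor intermediate filament nestin, fell by 2.22 to 29.2 ± 2.38 FPKM at 144 h, against 139.6 ± 2.90 FPKM at 24 h. Sox2, the transcription factor of neural stem cells, rose by 1.41 to 285 ± 18.9 FPKM at 144 h, against 107 ± 2.57 FPKM at 24 h, and Vcam1, an adhesion molecule of quiescent stem cells, rose by 3.34.

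Notch genes rose more often than they fell. Of 16 tested, 10 rose, 2 fell and 4 did not pass (median 1.19), against 26.7% of all genes higher and 26% lower. Hes5, a direct Notch target in neural progenitors, had 228, 371 and 229 FPKM at 144 h, against 29.5, 32.6 and 28.2 FPKM at 24 h (3.12). The inhibitory ligand Dll3 rose by 3.22 to 111 ± 29.3 FPKM at 144 h, against 10.8 ± 1.02 FPKM at 24 h, and Dll1 by 1.88. Hes1, another target, fell by 0.94 to 14.1 ± 6.27 FPKM at 144 h, against 26.6 ± 1.39 FPKM at 24 h, and the ligand Jag1 fell by 0.78. Of the 14 tested genes of the BMP pathway 8 rose and 2 fell (10 and 3 without replicate 2, against 43.6% of all genes each way). The risers included Id1 (2.55) and Id3 (1.60), which block basic helix-loop-helix factors.

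Interferon-stimulated genes rose from very low levels. Of the 19 tested, 17 rose and 1 fell (median 1.85), 15 of the rises being at least 1 in both fits, where 26.7% of all genes were higher and 10.5% by that size. Ifit3, an interferon-induced antiviral protein, had 51.8, 60.6 and 41.7 FPKM at 144 h, against 0.161, 0.203 and 0.139 FPKM at 24 h, and its log2 fold change was 5.47 (SE 0.15, limma adjusted p = 6.1e-06). Stat2 and Irf9, which act in the factor that drives these genes, rose by 1.17 and 2.16. Usp18, which restrains the receptor, rose by 3.20. The gene that fell was Sting1, the adaptor of cytosolic DNA sensing, with 0.996, 0.885 and 1.17 FPKM at 144 h, against 53.2, 52.6 and 52.5 FPKM at 24 h (-4.74). Cgas, the sensor upstream of it, stayed under 1 FPKM at both times.

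The promoters of 3 of these genes are shown because the interferon-stimulated response element lies next to their start sites. Only genes that hold a match in a stretch free of exons were eligible, so a match in each was fixed by the choice. Capitals mark matches to the core of that element, GAAA repeated after any 2 bases, on either strand, in the 150 bases before the RefSeq start (GRCm38.p6, strand of the gene, 5′ to 3′). The stretches are chr19:34583379-34583528 on the plus strand for Ifit3, chr4:156200819-156200968 on the minus strand for Isg15 and chr12:26456453-26456602 on the minus strand for Rsad2. This motif was chosen after the values were seen.
Ifit3: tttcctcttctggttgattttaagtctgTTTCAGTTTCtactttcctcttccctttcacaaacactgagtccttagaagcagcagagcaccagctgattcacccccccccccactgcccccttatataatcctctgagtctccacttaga
Isg15: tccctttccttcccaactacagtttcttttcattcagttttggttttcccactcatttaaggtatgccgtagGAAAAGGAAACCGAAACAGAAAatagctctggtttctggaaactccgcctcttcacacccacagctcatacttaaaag
Rsad2: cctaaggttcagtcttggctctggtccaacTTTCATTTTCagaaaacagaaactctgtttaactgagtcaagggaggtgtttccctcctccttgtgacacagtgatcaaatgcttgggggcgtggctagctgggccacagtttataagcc

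In Isg15, the ubiquitin-like modifier, 3 matches overlap each other between 78 and 57 bases before the start, and Ifit3 and Rsad2 hold 1 match each. Over 250 bases the core was found in 40% of the 15 interferon genes with a promoter in the table, and in 3.04% of all promoters. Isg15 had 10, 16.7 and 8.92 FPKM at 144 h, against 0.48, 0.229 and 0.537 FPKM at 24 h (3.14), and Rsad2, the antiviral enzyme viperin, had 5.21, 4.65 and 4.60 FPKM at 144 h, against 0.623, 0.712 and 0.504 FPKM at 24 h (1.85).

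Genes of antigen presentation and of reactive glia were higher as well. In MHC class I presentation 7 of 10 rose and none fell (median 0.73), against 26.7% of all genes higher and 26% lower. B2m, the invariant light chain, rose by 1.63 to 221 ± 75.2 FPKM at 144 h, against 68.2 ± 1.51 FPKM at 24 h, and Tapbp, which loads peptides, rose by 2.35. In the acute-phase and reactive glia list 13 of 15 rose and 1 fell (median 1.22). Serpina3n, a protease inhibitor of reactive astrocytes, had 22, 19.6 and 24.2 FPKM at 144 h, against 0.0636, 0.0623 and 0.131 FPKM at 24 h (4.40), and C4b, a complement component, rose to 11.9 ± 2.72 FPKM at 144 h, against 0.586 ± 0.0604 FPKM at 24 h. Lcn2, the iron-binding lipocalin, had 12.5, 17.2 and 15 FPKM at 144 h, against 1.19, 0.909 and 1.13 FPKM at 24 h (2.93). The chemokine Ccl2 fell by 1.79, and the chemokine Cxcl10 rose by 2.35. The microglial and blood markers were under 1 FPKM in every library, as given above.

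Lysosomal genes rose almost without exception, 24 of 26 with none lower (median 1.22), and for all 26 the 2 times did not overlap, against 26.7% of all genes higher and 68.1% without overlap. Ctsl, the cysteine protease cathepsin L, had 79.6, 136 and 77.3 FPKM at 144 h, against 10.9, 10.4 and 10.4 FPKM at 24 h (3.05). The autophagy receptor Sqstm1 rose by 1.22, and Tfeb, the transcription factor of lysosomal genes, by 0.65. Of 12 genes for cholesterol efflux and lipid transport 7 rose and none fell (median 0.99), with Abca1, the cholesterol exporter, at 77.8, 26.6 and 73.6 FPKM at 144 h, against 10.6, 10.1 and 10.5 FPKM at 24 h (2.26). FOXO targets and growth arrest genes rose in 14 of 19 cases and fell in 3 (median 0.75), against 26.7% of all genes higher and 26% lower. Pik3ip1, an inhibitor of PI3 kinase, had 59.6, 74.1 and 59 FPKM at 144 h, against 5.04, 5.38 and 5.43 FPKM at 24 h (3.37), Txnip rose by 1.15, and Irs2 and Trib2 fell by 1.18 and 1.30.

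The change with time under CT-179 was then set against the change with time in vehicle, in the same line and over the same interval. These contrasts share no library. Over the 11949 genes the log2 changes correlated at Pearson's r 0.969 and Spearman's rho 0.945, and at 0.991 and 0.987 without CT-179 144 h replicate 2, as a description across genes, which are not independent replicates. In vehicle the list medians were -2.62 for replication, -3.17 for mitosis, 2.55 for astrocyte markers, 1.20 for lysosomal genes and 1.84 for interferon genes. Gfap changed by 6.14 under CT-179 and 6.07 in vehicle, Mki67 by -3.87 and -3.70, and Ifit3 by 5.47 and 5.58.

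**Figure D4:**
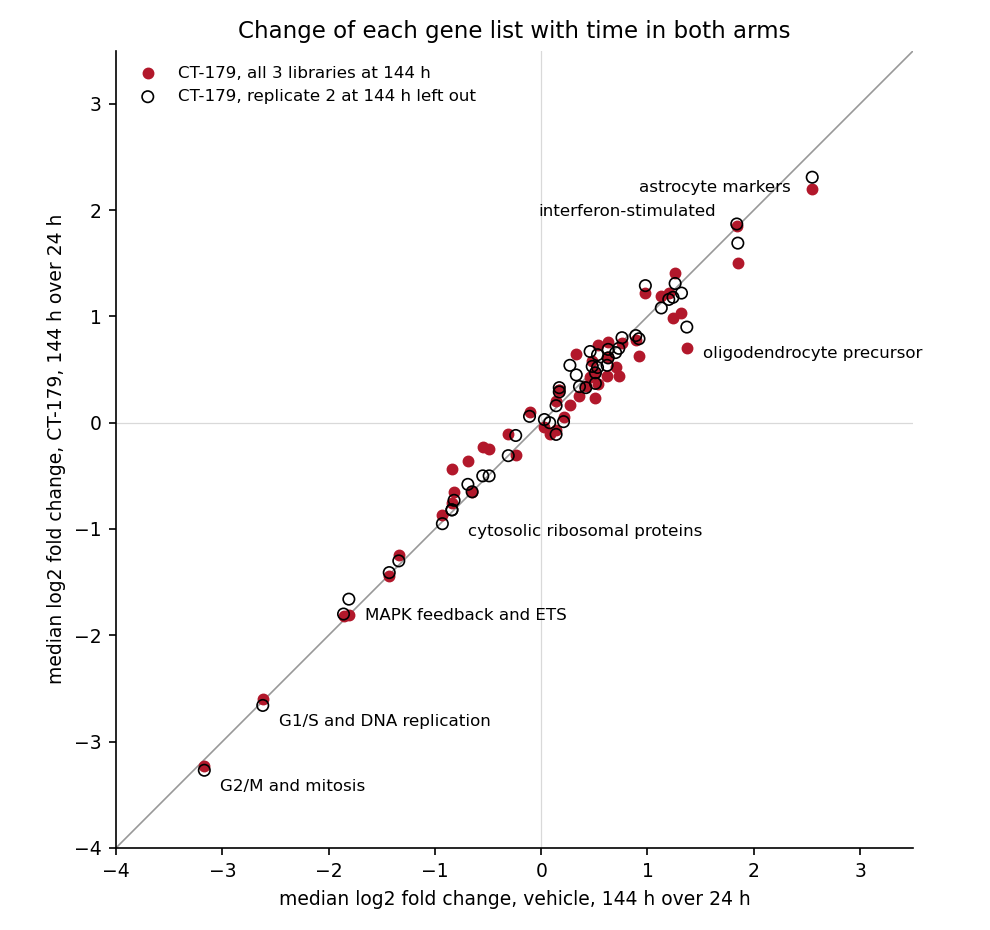
Median log2 fold change of 144 h over 24 h of each gene list with at least 5 tested members, under CT-179 (vertical axis) against vehicle (horizontal axis), with the line of equal change. Filled points use all CT-179 libraries and open points leave out CT-179 144 h replicate 2, and astrocyte markers lie at 2.20 (filled) and 2.31 (open) against 2.55 in vehicle.

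A test of the difference, the change under CT-179 minus the change in vehicle, called 0 of 12510 genes (0%) with all 12 libraries by limma at an adjusted p of 0.05, and 574 genes were below 0.05 before adjustment. When replicate 2 of CT-179 at 144 h was left out, 149 genes changed more positively under CT-179 (1.19%) and 180 more negatively (1.44%), together 2.63%. All differences that follow are from that fit of 11 libraries, and none passed with all 12.

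Lcn2 differed most in the positive direction among the named genes, by 1.16 (SE 0.10, limma adjusted p = 0.00074). It read 12.5 and 15 FPKM in the 2 retained libraries of CT-179 at 144 h, against 6.76, 7.05 and 6.51 FPKM in vehicle at 144 h, and 0.909 to 1.19 FPKM under CT-179 at 24 h, against 1.43 to 1.52 FPKM in vehicle at 24 h. Igfbp2, a secreted binding protein of insulin-like growth factors, fell less under CT-179: it read 38.5, 69.2 and 42.9 FPKM at 144 h, against 23.4, 21.2 and 23.4 FPKM in vehicle, with 472 to 507 FPKM under CT-179 at 24 h and 426 to 474 FPKM in vehicle at 24 h (difference 0.71, adjusted p = 0.0027). The other genes with the largest positive differences were the protease inhibitor A2m (0.83), the laminin chain Lama4 (0.66), the fibrillin Fbn2 (0.60), the R-spondin receptor Lgr5 (0.55), the neural adaptor Shc3 (0.50) and the proteoglycan perlecan, Hspg2 (0.50). Without replicate 2, Hspg2 averaged 6.22 FPKM under CT-179 and 8.32 FPKM in vehicle at 144 h, and Fbn2 averaged 1.03 and 1.06 FPKM. A2m, Lama4, Lgr5 and Shc3 were higher under CT-179 in the same means. At 24 h all 6 averaged lower under CT-179 than in vehicle, with Hspg2 at 6.35 and 12.4 FPKM and Fbn2 at 5.73 and 9.35 FPKM. In each of these 6 genes replicate 2 was the lowest library of CT-179 at 144 h, and with all 12 libraries the differences of Shc3 and Hspg2 were -0.12 and -0.02, of the opposite sign.

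Genes of the oligodendrocyte precursor and neuronal lists were among those that rose less. Gpr17 read 27.7 and 24.9 FPKM in the 2 retained libraries of CT-179 at 144 h, against 51.5, 50.8 and 45.7 FPKM in vehicle at 144 h, and both groups were under 0.3 FPKM at 24 h (difference -0.90, adjusted p = 0.00074). Replicate 2, at 20.8 FPKM, was also below every vehicle library. Miat, a long noncoding RNA, read 11.3, 3.42 and 6.83 FPKM under CT-179 at 144 h and 27.8, 30.3 and 28.9 FPKM in vehicle at 144 h (difference -1.44, adjusted p = 0.0041). Dcx differed by -0.73 and the tenascin Tnr by -0.68. Matn1, a matrix protein, was listed at 0 in all 24 h libraries and read 0.777, 2.14 and 0.627 FPKM under CT-179 at 144 h, against 3.56, 3.57 and 2.98 FPKM in vehicle at 144 h. Flt3l (-0.73), Cfp (-0.66) and Amy1 (-0.64) complete the 8 genes with the largest negative differences.

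Of the 13 tested genes of the SHH pathway list 2 differed upward and 1, Gli1, downward, against 1.19% and 1.44% of all genes. The median difference of the list was 0.11. Gli1 read 12.3, 9.38 and 11.5 FPKM under CT-179 at 144 h, against 19.4, 20.6 and 21.1 FPKM in vehicle at 144 h, with 1.84 to 1.98 FPKM under CT-179 at 24 h and 2.34 to 2.60 FPKM in vehicle at 24 h. All 3 CT-179 libraries lay below all vehicle libraries at both times, and the difference in change was -0.48 (adjusted p = 0.0058). Within the MAPK feedback list 6 of 17 genes differed and all 6 upward, against 1.19% of all genes upward and 1.44% downward: Dusp6 (0.37), Spry2 (0.28), Spred2 (0.23), Etv5 (0.30), Egr1 (0.45) and Il17rd (0.30). With all 12 libraries Spred2 and Il17rd differed by -0.13 and -0.17, so their direction rested on leaving out replicate 2. Among the 25 genes of collagen, laminin and fibrillar matrix 9 differed upward and 2 downward and those upward included the fibrillar collagen Col3a1 (0.37), while the 2 downward were Sparc (-0.22) and Col9a1 (-0.30). The neuronal list had 1 gene upward and 6 downward, Tubb3 (-0.34) included, and cholesterol synthesis had 6 downward, Hmgcs1 (-0.31) included. In the list of CLK kinases, cyclin L and splicing partners 8 of 17 genes differed downward and none upward, with a median difference of -0.24. Fatty acid synthesis and oxidation had 5 of 21 genes downward and astrocyte markers 4 of 27, with none upward in either list. For Olig2 the difference was 0.02 (adjusted p = 0.88).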

How the data were processed

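The deposited values are FPKM per gene and library, as the authors scaled them. RNA was extracted with an RNeasy kit and sequenced as paired-end reads of 100 bases from SMARTer mRNA libraries, per the labels' protocols. The submitters' processing notes name the build mm10, STAR 2.6.0c, edgeR 3.28.1, R 3.6, HTSeq 0.6.1p2 and Trim Galore 0.5.0, and the annotation and the use of strand are not given in the sources used here. Depth was inferred from the steps of low FPKM values with GENCODE M21 exonic lengths, and 90.1% to 92.1% of low values came out within 0.1 of a whole read.

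Log2(FPKM + 1) was tested with limma 3.58.1 (R 4.3.3, moderated with a variance trend, Benjamini-Hochberg adjustment) over genes that reached 1 FPKM in 3 or more of the 6 libraries. The difference from vehicle was tested as an interaction over all 12 cell libraries, with the same minimum in at least 3 of 12. A replicate block was an alternative. Deviations from the group means of same-numbered CT-179 libraries at 144 h and 24 h correlated at 0.11, 0.24 and 0.14 across genes. For differently numbered ones r was -0.24 to 0.15, highest for replicate 1 at 144 h with replicate 3 at 24 h. The measure therefore does not settle whether the numbers pair these libraries, and no label says so. Other alternatives were the pseudocount, the filter, scaling, array weights, a length correction and each library left out. Named genes were 6 chosen genes, the 12 largest rises and 12 largest falls with a mean of at least 5 FPKM in a group, members of the gene lists, and the 8 largest differences from vehicle each way. The members and gene lists were chosen with earlier results of these data known. The interferon motif, the count of changes of at least 1 on the log2 scale in both fits and the combined settings in which replicate 2 was left out with another scaling or the length correction were chosen after seeing the data. The limma step was also run on simulated data with known changes, built from the means and spread of these libraries. Promoters came from the RefSeq table (GRCm38.p6). A few genes are not reported here.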

Additional observations from a re-analysis of the deposited data

Results flagged for a closer look

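The time course differed between CT-179 and vehicle for the genes below, by limma's interaction test without CT-179 144 h replicate 2 (11 libraries); with all 12 libraries none passed. Values are the log2 change over time under CT-179 minus that in vehicle. The positive differences were Lcn2 at 1.16, A2m at 0.83, Igfbp2 at 0.71, Lama4 at 0.66, Fbn2 at 0.60, Lgr5 at 0.55, Shc3 at 0.50, Hspg2 at 0.50, Egr1 at 0.45, Col3a1 at 0.37, Dusp6 at 0.37, Etv5 at 0.30, Il17rd at 0.30, Spry2 at 0.28 and Spred2 at 0.23. The negative differences were Miat at -1.44, Matn1 at -1.36, Gpr17 at -0.90, Dcx at -0.73, Flt3l at -0.73, Tnr at -0.68, Cfp at -0.66, Amy1 at -0.64, Gli1 at -0.48, Tubb3 at -0.34, Hmgcs1 at -0.31, Col9a1 at -0.30 and Sparc at -0.22. Groups of 3 libraries are too small for a test of single outlying values.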

How the results depend on the processing

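The counts depended most on CT-179 144 h replicate 2. Leaving out 1 library at a time gave 2390 to 5210 genes higher and 2231 to 5205 lower at 144 h, the highest of both without replicate 2. With that library left out, other settings gave 4854 higher and 5599 lower (median-of-ratios scaling), 5498 and 5205 (fit of 11 libraries), 4952 and 5102 (length correction) and 5798 higher (TPM scaling), and array weights gave 5240 and 5260. For the difference from vehicle, leaving out 1 library gave 0 to 149 genes higher and 0 to 180 lower. The remaining counts higher and lower were 604 and 627 (array weights), 123 and 180 (median-of-ratios scaling without replicate 2), 134 and 205 (length correction without replicate 2), 3 and 5 (length correction), 1 and 6 (pseudocount 5), 6 and 22 (no filter), and 1 and 0 (TPM scaling, which moved the median difference to -0.156, against -0.028). The correlation of change with transcript length was 0.05 without replicate 2, against -0.13 with it, and for the difference -0.03 against -0.64.

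With the replicate block 5701 genes changed (2905 higher and 2796 lower), against 6295 without it, and Cspg4, Ddb2 and Zic2 no longer passed among the 154 genes named for time; no other of their calls was lost. Of 3190 values of these genes under all settings, 3054 kept direction and side of the threshold, 72 lost their call and 61 gained one. Leaving out CT-179 24 h replicate 2 lost the calls of Axin2, Bub3, Cspg4, Ddb2, Hes1, Irs2, Jag1, Pdgfra, Per2, Phgdh, Slc12a2, Tfeb, Trp53, Xpc and Zic2 (adjusted p of 0.052 to 0.14), with their direction kept. The same genes lost theirs without 24 h replicate 1, apart from Bub3 and Irs2, and without 24 h replicate 3, apart from Bub3 and Jag1. Without 144 h replicate 1 the calls of Ddb2, Hes1, Trp53, Xpc and Zic2 were lost, and without 144 h replicate 3 those of Cspg4, Hes1, Trp53, Xpc and Zic2. Signs changed for Gja1 (0.05 with the length correction, 0.10 with TPM scaling without replicate 2) and Smo (0.06 in the same TPM fit), neither of which passed with all 6 libraries. List medians changed sign for WNT (0.03 without replicate 2, and 0.02 and 0.12 with the length correction and TPM scaling as well), granule lineage factors (0.05 with the length correction, 0.09 with TPM scaling without replicate 2), cholesterol synthesis (-0.03, length correction) and CLK kinases (0.02, length correction).

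Differences from vehicle changed sign against the fit of 12 libraries as follows. Leaving out 1 library at a time gave Hspg2 -0.30 to 0.50, Il17rd -0.41 to 0.30, Olig2 -0.11 to 0.02, Shc3 -0.45 to 0.50, Spred2 -0.32 to 0.23, Etv5 -0.08 to 0.30 and Tubb3 -0.34 to 0.02. Median-of-ratios scaling without replicate 2 gave Hspg2 0.50, Il17rd 0.29, Olig2 0.01, Shc3 0.49 and Spred2 0.21. Array weights gave Hspg2 0.50, Il17rd 0.30, Olig2 0.04, Shc3 0.53 and Spred2 0.23. The length correction gave Il17rd 0.05, and without replicate 2 Il17rd 0.30, Olig2 0.01 and Spred2 0.22. Pseudocount 5 gave Hspg2 0.10 and Shc3 0.05, and TPM scaling gave Etv5 -0.05. The cause of these changes was not tested. Single-line cultures, 3 libraries a group and an outlying library of unknown origin limit what the comparison can show.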

Other observations

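Several gene groups outside the programmes described above held genes that changed with time under CT-179, where 26.7% of all genes tested were higher and 26% lower. Among 17 circadian clock genes 9 rose and 3 fell with a median of 0.44. Bhlhe41, a transcriptional repressor of the clock, rose by 4.32, and Dbp, a factor under direct clock control, rose by 2.34, while Per2 fell by 0.61 and Ciart by 0.60. In the WNT list 5 of 16 rose and 4 fell with a median of -0.04, shares near those of all genes. Without CT-179 144 h replicate 2, 7 were higher and 7 lower, with a median of 0.03, against 43.6% of all genes each way. Apcdd1, an inhibitor of WNT signalling, rose by 4.62 and the ligand Wnt7b by 2.79, while Axin2, a feedback target of the pathway, fell by 0.77. In the insulin-like growth factor system 5 of 14 rose and 6 fell, with the binding proteins divided: Igfbp5 and Igfbp6 rose by 1.80 and 1.67, and Igfbp2, Igfbp3 and Igfbp4 had log2 fold changes of -3.30, -2.06 and -1.61, all falls that passed.

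Cytosolic chaperones were mostly lower, with 11 of 18 that fell and 3 that rose (median -0.65). Hspd1, the mitochondrial chaperonin, fell by 1.60 and Hsp90aa1 by 1.19, whereas the small heat shock protein Cryab, abundant in astrocytes, rose by 3.04. Of 10 genes of metal handling 4 rose and 2 fell (8 and 2 without that replicate): the ferritin heavy chain Fth1 rose by 1.91 and the metallothionein Mt3 by 2.03, and the transferrin receptor Tfrc fell by 1.18. In the collagen, laminin and fibrillar matrix list 9 of 25 rose and 8 fell, with a median of 0.17, against 26.7% of all genes higher and 26% lower. Without that replicate the counts were 13 and 9, with a median of 0.54, against 43.6% of all genes each way. The list held Col4a5 and Nid1 of the basement membrane among those that rose (2.45 and 2.42 on the log2 scale) and Col9a1 and Col3a1 among those that fell (-2.38 and -1.65).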
